A study of Homo sapiens with 5 samples.

Results

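The 7 genes of respiratory complex I that lie on the mitochondrial genome, MT-ND1, MT-ND2, MT-ND3, MT-ND4, MT-ND4L, MT-ND5 and MT-ND6, were read in single MDA-MB-468 cells. They are all the rows whose symbol begins with MT-ND, and the symbol alone decides which genes belong. The cells read separately further on were chosen by their measured share of mitochondrial counts. The members are 7 of the 13 protein-coding genes of the mitochondrial genome and of the 12474 genes in the matrix. All 7 passed the filter on low counts. MDA-MB-468 is an epithelial line from a triple-negative breast tumour with amplified EGFR, and in the study its cells carried a library of expressed lentiviral lineage barcodes. There were 5 libraries. At day 0 (D0), 2 libraries (replicates 1 and 2) held untreated cells. One library each held cells kept for 3, 6 or 9 days (D3, D6, D9) in 250 nM afatinib, which inhibits EGFR and ERBB2 by binding them covalently. Per the methods of the study, cells were frozen and thawed before capture, and the same barcoded population of 1 line supplied all groups. Nothing says that the D0 replicates were separate cultures, so the spread behind the p-values may be a technical one, and each treated day stands on 1 library.

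Complex I is the first and largest enzyme of the respiratory chain. It takes electrons from NADH, passes them to ubiquinone and pumps protons across the inner mitochondrial membrane. Its membrane arm is built on the 7 proteins encoded by the MT-ND genes, and its other core and accessory subunits are encoded in the nucleus and imported. The mitochondrial genome is transcribed from both strands into long precursors. The messenger RNAs are cut out of these, largely at the transfer RNAs between them, and most are then given a tail of adenosines. Their levels therefore depend on processing and decay as well as on transcription.

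The 3′ ends of the annotated genes are shown because the library kit starts copying at the tail of adenosines. An annotated end need not be the end of the RNA. That of MT-ND4L lies inside the RNA it shares with MT-ND4. Whether the RNA of each member, MT-ND6 included, carries a tail of adenosines was not tested. Levels of different members may therefore be captured unequally. On hg38, MT-ND1 occupies chrM:3307-4262, MT-ND2 chrM:4470-5511, MT-ND3 chrM:10059-10404, MT-ND4L chrM:10470-10766, MT-ND4 chrM:10760-12137 and MT-ND5 chrM:12337-14148, all on the plus strand. MT-ND6, at chrM:14149-14673, is the one member on the minus strand. Each gene is a single exon, and the annotation gives none of them an intron. The last 24 bases of each are printed 5′ to 3′ on the gene's own strand from the hg38 sequence, with the bases of the annotated stop in capitals:
MT-ND1 (chrM:4239-4262): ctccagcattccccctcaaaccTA
MT-ND2 (chrM:5488-5511): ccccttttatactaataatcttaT
MT-ND3 (chrM:10381-10404): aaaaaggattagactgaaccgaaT
MT-ND4L (chrM:10743-10766): aacctaaacctactccaatgcTAA
MT-ND4 (chrM:12114-12137): acatcattaccgggttttcctctT
MT-ND5 (chrM:14125-14148): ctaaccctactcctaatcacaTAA
MT-ND6 (chrM:14149-14172): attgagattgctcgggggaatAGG
MT-ND1, MT-ND2, MT-ND3 and MT-ND4 end in an incomplete stop codon, which the added adenosines complete. The end of MT-ND4L overlaps the start of MT-ND4 by 7 bases, chrM:10760-10766 (ATGCTAA), and the pair is known to be carried on 1 messenger RNA, so reads of that RNA are split between the names. MT-ND3 (346 nt), MT-ND4L (297 nt) and MT-ND6 (525 nt) are, with MT-ATP8 (207 nt), the 4 shortest of the 13 coding sequences, and MT-ND5 (1812 nt) is the longest of the 13.

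The matrix held 478 and 1063 cells of D0 replicates 1 and 2, 479 of D3, 942 of D6 and 1139 of D9, with library totals between 14517579 and 28148379 counts. Epithelial markers matched the label, since EPCAM, KRT8, KRT18, KRT7 and EGFR were at 446 to 1618 CPM (counts scaled to the library's total) in every library, while ESR1 did not exceed 0.305 CPM and the fibroblast gene COL1A1 was at 2.09 to 7.78 CPM. PGR, PTPRC, CD3E, LYZ, COL1A2, DCN, PECAM1 and VWF have no row in the matrix used here. Only 1 cell barcode occurred in more than 1 library. Counts had been adjusted for batch before deposit, and a trace of this was visible in the members. No cell of D0 replicate 1, D3, D6 or D9 had a value of 2 for MT-ND4L or MT-ND6, while D0 replicate 2 had 239 such values. The make-up of the RNA also moved between libraries. The 13 mitochondrial protein-coding genes held 7.25% and 7.80% of D0 counts, then 17.2%, 16.0% and 8.82% (D3, D6, D9). The nuclear RNA MALAT1 took 0.588% and 0.694%, then 1.67%, 2.10% and 1.08%, and ribosomal protein transcripts took 18.6% and 18.2%, then 13.1%, 14.1% and 13.8%. The part of these shifts in the results was not tested.

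Together the 7 members made up 1.71% and 1.86% of all counts in D0 replicates 1 and 2, 4.48% at D3, 4.23% at D6 and 1.56% at D9. Their summed level was thus 2.51 times the D0 mean at D3, 2.37 times at D6 and 0.873 times at D9. The return at D9 was not shared evenly. At D3 and D6 every member was above both D0 libraries, whereas at D9 MT-ND1, MT-ND2, MT-ND4 and MT-ND5 were still above them and MT-ND3, MT-ND4L and MT-ND6 lay below them.

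Of the members at the junction between the membrane arm and the quinone site, MT-ND1, a subunit that lines the quinone channel, was at 1976 and 2190 CPM in D0 replicates 1 and 2, 7722 at D3, 7984 at D6 and 3353 at D9. MT-ND3, whose mobile loop reaches that site, was at 6906 and 7497 CPM, then 15929, 13243 and 1076 CPM. MT-ND6, a small membrane subunit and the only member encoded on the other strand, was at 78.9 and 108 CPM, then 161, 113 and 18.1 CPM. MT-ND4L, another small membrane subunit, was at 317 and 353 CPM, then 529.8, 617 and 105 CPM. MT-ND1 thus stayed above D0 throughout, and the 3 shorter genes had their lowest value of the 5 libraries at D9.

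The remaining members are the antiporter-like subunits of the proton channels. MT-ND2 was at 1792 and 1994 CPM in D0 replicates 1 and 2, then 4709, 5036 and 2410 CPM from D3 to D9. MT-ND4 was at 4988 and 5378 CPM, then 12588, 12300 and 7108 CPM. MT-ND5 was at 1001 and 1086 CPM, then 3125, 2998 and 1492 CPM. In all 3 the treated libraries lay above both D0 libraries, with D9 nearest to them.

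**Figure D1:**
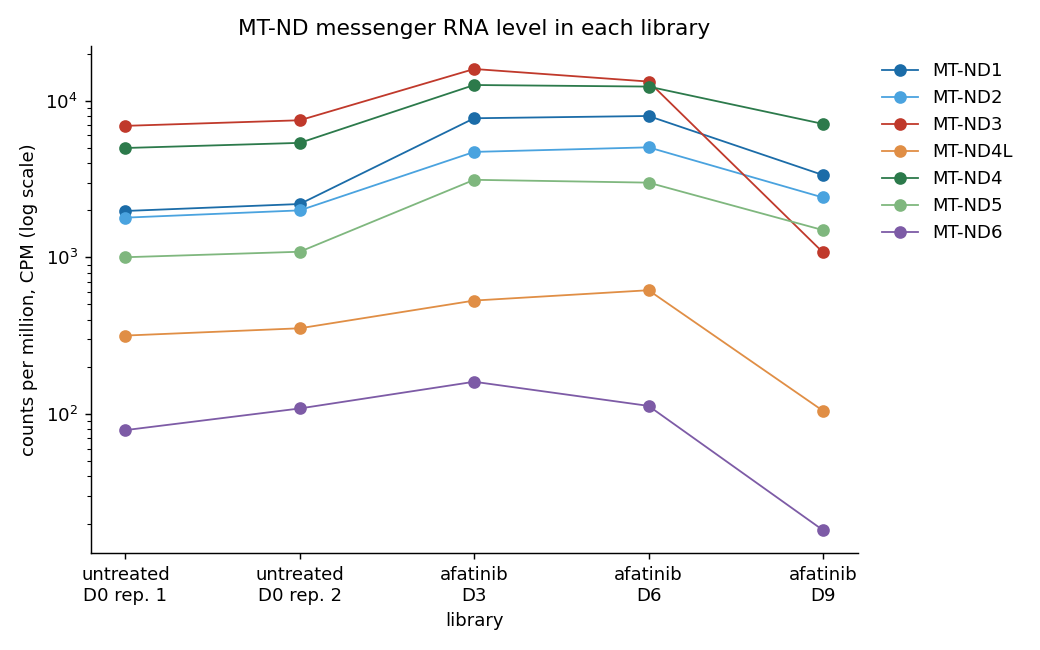
Level of each MT-ND messenger RNA in CPM (log axis) in the 5 libraries, 1 point per library, with lines that only join the points of a gene. All 7 are higher at D3 and D6 than at D0, and MT-ND3 drops from 13243 CPM at D6 to 1076 CPM at D9, below MT-ND1, MT-ND2 and MT-ND5.

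Levels of different genes were compared by length, as CPM per kilobase of annotated coding sequence, although a 3′ kit counts 1 end per molecule. On this scale the D0 order was MT-ND3 (19960 and 21668), MT-ND4 (3619 and 3903), MT-ND1 (2067 and 2290), MT-ND2 (1720 and 1914), MT-ND4L (1066 and 1187), MT-ND5 (553 and 599) and MT-ND6 (150 and 207). The values of neighbours in that order did not overlap between the 2 D0 libraries. At D6 MT-ND3 still led with 38275 CPM per kilobase. At D9 MT-ND4 led with 5158, and MT-ND3 had dropped to 3110, between MT-ND1 (3507) and MT-ND2 (2313). With 1 library a day, that order has no spread to be read against. In CPM, without the division by length, MT-ND5 (1001 and 1086) lay above MT-ND4L (317 and 353) at D0. At D9 MT-ND3 (1076 CPM) lay below MT-ND2 (2410) and MT-ND5 (1492). These places in the order therefore rest on the division.

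Afatinib was compared with untreated across the libraries, the 3 treated days serving as replicates of treatment. MT-ND1 rose, with a log2 fold change of 1.47 ± 0.406 (SE, 3 against 2 libraries), and so did MT-ND5, with 1.14 ± 0.345, and each was above both D0 libraries in 3 of 3 treated libraries. The adjusted p was 0.0372 for MT-ND1 and 0.0488 for MT-ND5 (edgeR quasi-likelihood test, Benjamini-Hochberg over 12145 genes). MT-ND2 (log2 fold change 0.96 ± 0.351, adjusted p 0.0841) and MT-ND4 (0.90 ± 0.332, adjusted p 0.0855) were above D0 in 3 of 3 libraries and did not pass in edgeR. MT-ND3 (0.34 ± 0.862), MT-ND4L (0.18 ± 0.605) and MT-ND6 (-0.10 ± 0.687) were above both D0 libraries at D3 and D6 and below them at D9. Thus 2 of 7 members rose and 0 fell, beside 13.1% of all genes tested that rose and 10.1% that fell, and the median of the 7 was 0.90 against 0.05 over all genes.

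These calls were narrow. The MT-ND1 call ended without D0 replicate 1 (log2 fold change 1.40, edgeR adjusted p 0.288), without D0 replicate 2 (1.54, 0.269), without D3 (1.33, 0.0823) and without D6 (1.22, 0.102). The MT-ND5 call ended in the same 4 fits (1.09, 1.20, 0.99 and 0.96, with edgeR adjusted p values of 0.319, 0.293, 0.11 and 0.134) and when the libraries were scaled to nuclear-encoded genes alone (1.07, 0.0587) or by the size factors of DESeq2 (1.11, 0.0538). Without D9 all 7 members passed and all 7 were higher, from 1.77 for MT-ND1 to 0.39 for MT-ND6, with edgeR adjusted p values between 2.4e-08 and 0.0386. Most of all genes also passed in that fit, in either direction, the largest number of any fit with 1 library left out.

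Each day was then read on its own, in a fit with day as a factor that rests on the D0 pair for its spread. The SEs of this fit come from that pair too, and hold no spread between libraries of a treated day. In that fit 43.7% of all genes passed the adjusted p alone between D9 and D6, and 58.1% between D3 and D0, so calls also needed a log2 fold change at or beyond 1 in either direction, and the p-values are not given gene by gene. At D3, MT-ND1 (1.71 ± 0.0269), MT-ND5 (1.40 ± 0.0332), MT-ND2 (1.13 ± 0.0297) and MT-ND4 (1.10 ± 0.0233) rose against D0, 4 of 7 beside 6.29% of all genes. MT-ND3, with 0.96, lay just under the fold required, MT-ND6 was at 0.59 and MT-ND4L at 0.48. At D6 MT-ND1, MT-ND5, MT-ND2 and MT-ND4 were again past the threshold against D0 (1.84, 1.42, 1.31 and 1.14), 4 of 7 beside 6.74%, with MT-ND4L and MT-ND3 at 0.78 each and MT-ND6 at 0.16. These comparisons share the D0 libraries. Between D6 and D3, 0 of 7 passed, beside 1.24% of all genes in either direction. The adjusted edgeR p alone was under 0.05 for 5 of 7, as was the unadjusted p, beside 7.34% of all genes by adjusted p alone, and the differences ran from -0.43 (MT-ND6) to 0.30 (MT-ND4L).

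At D9 the members parted. Against D0, MT-ND3 fell by 2.88 ± 0.0278 on the log2 scale, MT-ND6 fell by 2.51 ± 0.131 and MT-ND4L fell by 1.81 ± 0.0614, 3 of 7 lower beside 7.21% of all genes. The other 4 were higher by 0.21 (MT-ND2) to 0.55 (MT-ND1), short of the fold required. Set against D6, a comparison that uses no D0 level, 6 of 7 fell, beside 3.26% of all genes. MT-ND3 fell by 3.65 ± 0.0305, MT-ND6 fell by 2.67 ± 0.143 and MT-ND4L fell by 2.59 ± 0.0677, while MT-ND1 fell by 1.28, MT-ND2 fell by 1.10 and MT-ND5 fell by 1.04, and MT-ND4 was at -0.82. Against D3, 5 of 7 fell, beside 4.20%, with MT-ND3 lowest at -3.84 and MT-ND2 (-0.92) and MT-ND4 (-0.78) short of the fold. A single library stands behind D9, so its differences from the other days and those of its capture cannot be told apart.

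How much of the mitochondrial output the 7 genes took was asked next. MT- counts are the counts of all 13 mitochondrial protein-coding genes. The 7 members took 23.5% and 23.9% of them in D0 replicates 1 and 2, then 26.1%, 26.4% and 17.6% at D3, D6 and D9. The mean was 23.7% ± 0.217 (SD, n = 2) for untreated and 23.4% ± 4.98 (SD, n = 3) for afatinib libraries, a difference of -0.31 percentage points (exact permutation test, two-sided, p = 1), and the afatinib values lay on both sides of the untreated ones. Without D9 the difference was 2.56 points.

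Within that total the 7 shares moved in different directions. MT-ND1 took 2.73% and 2.81% of MT- counts at D0 and 4.50%, 4.99% and 3.80% at D3, D6 and D9. MT-ND5 took 1.38% and 1.39%, then 1.82%, 1.87% and 1.69%. MT-ND4 took 6.88% and 6.89%, then 7.34%, 7.69% and 8.06%, so its share was highest at D9 although its level was not. MT-ND2 had 2.47% and 2.56%, then 2.74%, 3.15% and 2.73%. In these 4 genes every afatinib library was above both D0 libraries.

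MT-ND3, the leading member, took 9.53% and 9.61% of MT- counts at D0, 9.28% at D3 and 8.28% at D6, and 1.22% at D9. Its rise in CPM at D3 and D6 was therefore no larger than that of the MT- counts as a whole, with shares 0.970 and 0.865 times the D0 mean, while the D9 share was 0.127 times that mean. MT-ND4L had 0.437% and 0.452%, then 0.309%, 0.386% and 0.119%, and MT-ND6 had 0.109% and 0.139%, then 0.0936%, 0.0704% and 0.0206%. In these 3 genes every afatinib library was below both D0 libraries. For each of the 7 genes the exact permutation test (two-sided, 3 against 2 libraries) gave p = 0.2, the smallest this design allows, and 0.229 after Benjamini-Hochberg adjustment over the 8 shares tested. Among MT-ND counts alone, MT-ND3 went from 40.5% and 40.3% at D0 to 6.91% at D9, and MT-ND4 from 29.2% and 28.9% to 45.7%.

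The low MT-ND3 share of D9 was present in single cells across the library. The median cell had 9.27% and 9.36% of its MT- counts from MT-ND3 in D0 replicates 1 and 2, 9.02% at D3, 8.17% at D6 and 1.19% at D9. The highest of the 1139 D9 cells reached 3.57%, so 100% of D9 cells were below 5.94%, the lowest 5th percentile among the other libraries, against 1.26% and 2.26% of D0 cells, 1.46% of D3 cells and 5.10% of D6 cells. That bound is drawn from the other libraries themselves, so their low values follow from it. For MT-ND4L 48.3% of D9 cells fell below the corresponding bound, and for MT-ND1, MT-ND2, MT-ND4 and MT-ND5 no more than 2.11% did. The bound of MT-ND6 was 0, so no cell could lie below it. The median MT-ND4 share was 7.90% at D9, against 6.79% to 7.56% elsewhere.

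**Figure D2:**
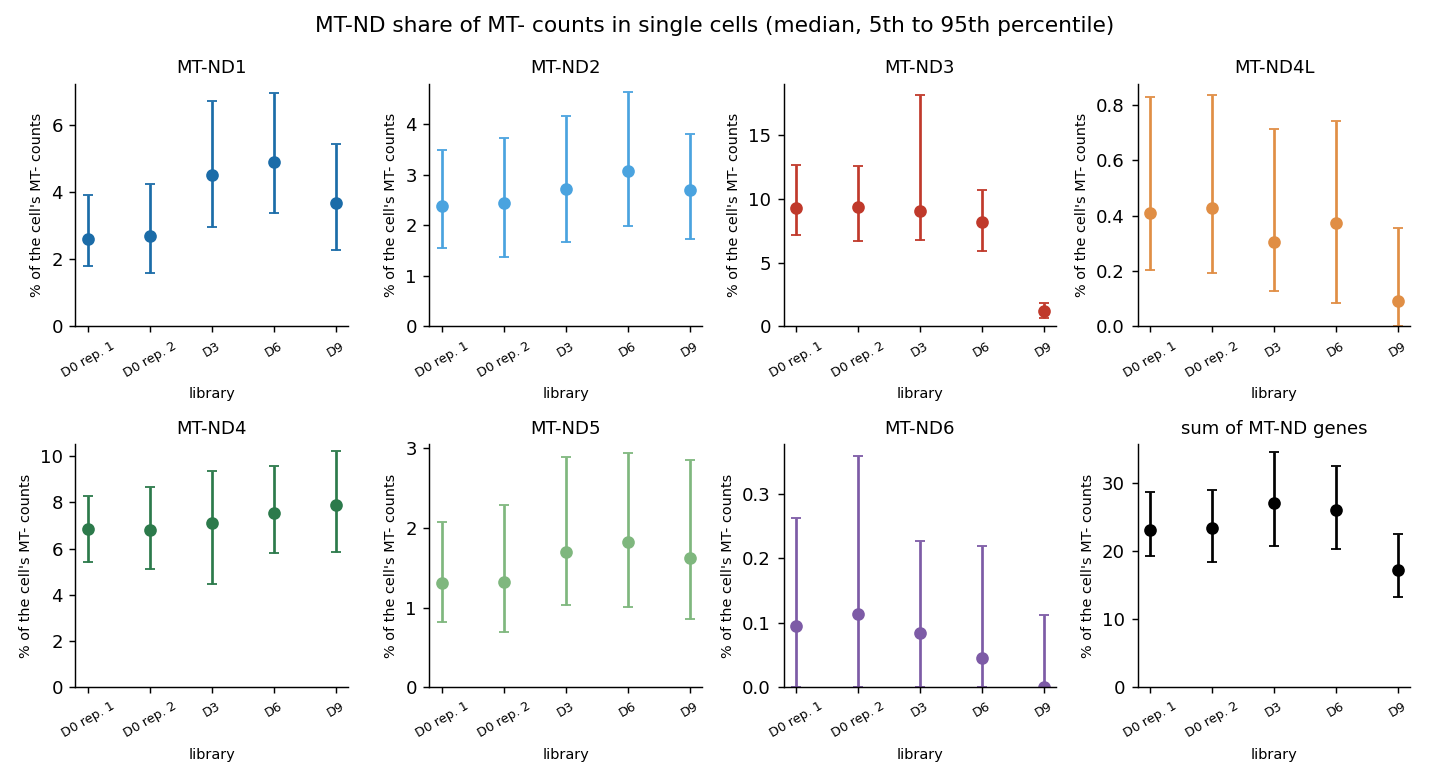
Share of each cell's MT- counts taken by each MT-ND gene and by their sum, in percent, with the median (point) and the 5th to 95th percentile of cells (bars) in each library. The MT-ND3 interval of D9, around a median of 1.19%, is the only one of the 5 that lies apart from the rest, while the MT-ND4 intervals overlap in all libraries.

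When every cell was thinned to 5000 UMIs, which kept all 4101 cells, MT-ND1, MT-ND2, MT-ND4 and MT-ND5 had a UMI in at least 96.4% of cells of each library. MT-ND3 did so in 99.8% to 100% of cells of D0, D3 and D6 and in 96.8% (exact 95% interval 95.6 to 97.7) at D9. MT-ND4L was seen in 77.6% (73.6 to 81.3) and 79.8% (77.2 to 82.2) of D0 cells, in 86.6% (83.3 to 89.6) of D3 cells, 91.6% (89.7 to 93.3) of D6 cells and 38.2% (35.4 to 41.1) of D9 cells. MT-ND6 was seen in 34.9% and 40.2% of D0 cells, 53.2% at D3, 41.1% at D6 and 8.87% (7.28 to 10.7) at D9. Without thinning, 296 of 1139 D9 cells had no MT-ND4L count, against 3 to 16 cells in each of the other libraries, and 882 had no MT-ND6 count. The intervals cover counting error only. No cell in these libraries should lack mitochondria, so a background share from free RNA could not be read.

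Annotated length moved with the D9 differences, in nuclear genes as well. Between D9 and D6 the 43 nuclear-encoded genes with a canonical transcript of 300 to 400 nt had a median log2 fold change of -1.31, the 107 genes of 400 to 500 nt -0.84, the 139 genes of 500 to 600 nt -0.35, the 372 genes of 800 to 1000 nt 0.56, and the 3138 genes of at least 5000 nt -0.26. Lengths of the members were those of their annotated coding sequences, and the RNA that carries MT-ND4L with MT-ND4 is longer. The short members MT-ND3, MT-ND4L and MT-ND6 were below nearly all nuclear genes of like annotated length (0.8 to 1.25 times theirs). Of 71 such genes 1 was lower than MT-ND3 (their median was -1.20), of 28 genes 0 were lower than MT-ND4L (-1.43), and of 319 genes 2 were lower than MT-ND6 (-0.34). The longer members were low for their length too, with 12 of 794 genes below MT-ND1 and 33 of 2091 below MT-ND5, while MT- counts as a whole went from 16.0% to 8.82% of all counts between these days.

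Against D0 the short members were closer to nuclear genes of their annotated length, which the offset below also uses. There 17 of 71 genes were lower than MT-ND3 (their median was -2.16), 17 of 28 lower than MT-ND4L (-2.45) and 28 of 319 lower than MT-ND6 (-0.67). With an offset that takes out the length trend of nuclear genes, chosen after the data were seen, MT-ND3 was at -2.12 and MT-ND6 at -2.13 against D0, while MT-ND4L reached -0.90 and lost its call. Against D6 the offset left -3.42 for MT-ND3, -2.74 for MT-ND6 and -2.23 for MT-ND4L, and 7 of 7 members were past the threshold. The share of all genes past the threshold with this offset is not given. That count and the counts with the offset further below therefore have no background beside them. Across the 13 mitochondrial protein-coding genes, Spearman's rho between annotated length and the D9 to D6 difference was 0.62. These genes share the libraries and their long precursors, and are not independent. MT-ATP8, shorter than any MT-ND gene, was at -2.14, nearer to 0 than MT-ND3, MT-ND4L and MT-ND6. Whether length had a part in the D9 values beyond this offset was not tested.

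**Figure D3:**
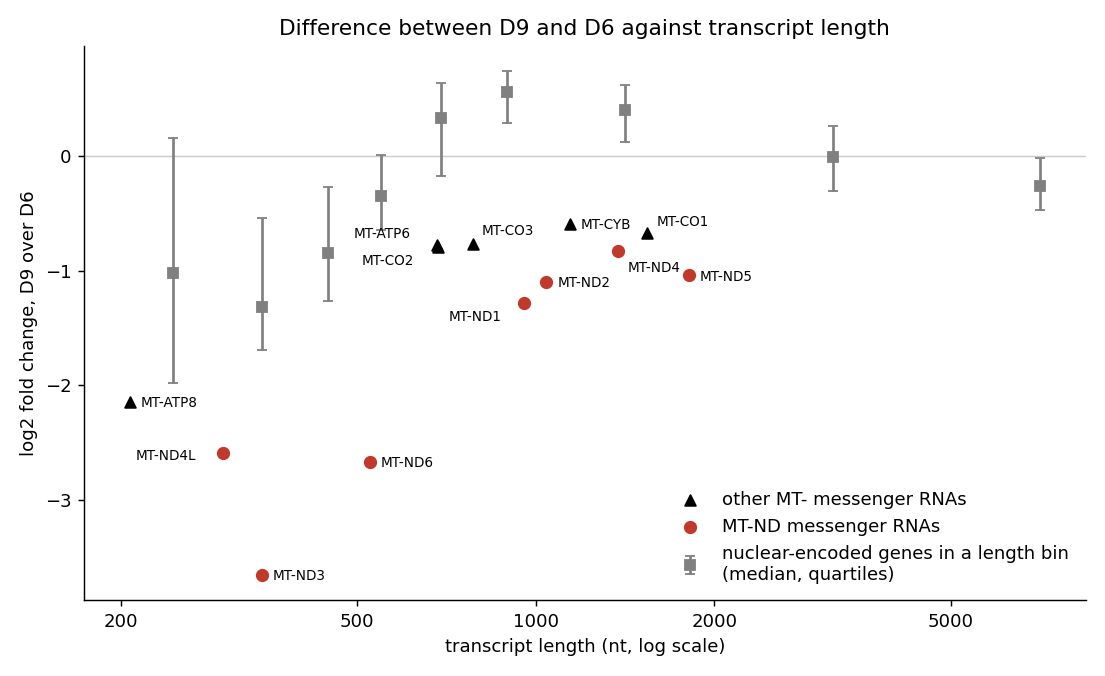
Log2 fold change between D9 and D6 against annotated length in nt (log axis). Shown are the 7 MT-ND and the 6 other mitochondrial protein-coding genes (1 point each), placed at the length of their annotated coding sequence. Nuclear-encoded genes are shown in bins of transcript length (squares are medians, bars the quartiles). The shortest nuclear genes lie below 0, from a median of -1.31 at 300 to 400 nt, and MT-ND3 lies lowest of all plotted points at -3.65.

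The same counts per library were also set out as ratios of neighbouring genes. MT-ND4L and MT-ND4 are carried on 1 messenger RNA, and per 100 MT-ND4 counts there were 6.35 and 6.56 MT-ND4L counts at D0, 4.21 at D3, 5.01 at D6 and 1.47 at D9. MT-ATP8 and MT-ATP6, the other such pair, gave 1.26 and 1.48 MT-ATP8 counts per 100 at D0, then 1.17, 1.24 and 0.479. In both pairs the upstream, shorter name had its lowest ratio at D9. MT-ND3 per 100 counts of MT-CO3, the messenger RNA before it on the same strand, went from 60.2 and 61.1 at D0 to 54.5, 45.9 and 6.21. MT-ND6 per 100 counts of MT-ND5, which ends beside it on the opposite strand, went from 7.88 and 9.99 to 5.14, 3.76 and 1.22.

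Cells were also divided at 10% MT- counts. Since the members are part of that count, the values on either side are a description and carry no test. The highest cell under the line had 9.99% and the lowest over it 10.0%, with 294 cells in the last point under it and 183 in the first point over it, and those just under had 22.0% of MT- counts from the 7 genes against 22.6% just over. Cells over 10% were 20.7% (exact 95% interval 17.2 to 24.6) and 19.1% (16.8 to 21.6) of D0 cells. They were 82.3% (78.5 to 85.6) of D3 cells, 80.0% (77.3 to 82.6) of D6 cells and 24.8% (22.3 to 27.4) of D9 cells. The authors had already removed cells with an outlying mitochondrial share for their depth.

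Summed, the 7 genes were 2.53 to 3.53 times higher in CPM over the line than under it in the 5 libraries, which the division itself sets. Their share of MT- counts, which it does not set directly, was 23.5% under and 23.8% over the line in D0 replicate 1, 23.4% and 25.1% in D0 replicate 2, 25.3% and 26.2% at D3, 23.9% and 26.9% at D6, and 17.2% and 18.6% at D9. The share was thus higher in cells over the line in 5 of 5 libraries, by 1.47 ± 1.02 points (SD, n = 5). At a line of 5% instead, which left 26 cells of D3 and 11 of D6 under it, the mean difference was 0.073 points. It was 1.02 points there without D3, the one library with the lower share over that line, and -0.63 points without D6. MT-ND1, MT-ND2 and MT-ND6 had the larger share over the line in 5 of 5 libraries, MT-ND3 and MT-ND4 in 4, MT-ND5 in 2 and MT-ND4L in 1. MT-ND6 had the widest gap in CPM, 3.67 to 5.79 times higher over the line, and MT-ND4L was 1.97 to 2.69 times higher, the narrowest gap in each library but D6, where MT-ND4 had 2.68 times.

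The low MT-ND3 at D9 appeared on both sides of the line. Under 10% its share of MT- counts was 9.41% and 9.32% at D0, 10.3% at D3, 7.31% at D6 and 1.17% at D9, and over 10% it was 9.87%, 10.5%, 9.16%, 8.46% and 1.32%. MT-ND1 was likewise higher under afatinib on both sides, with 2.68% and 2.73% at D0 against 4.05%, 4.34% and 3.57% at D3, D6 and D9 under 10%, and 2.86% and 3.04% against 4.55%, 5.11% and 4.28% over it. Levels under the line are partly set by the line, since it caps the share of MT- counts, members included, in every cell kept. The line also left out most D3 and D6 cells but only a minority of D0 and D9 cells. When only cells under 10% were summed, the afatinib log2 fold change was 0.64 for MT-ND1 and 0.34 for MT-ND5. For MT-ND2 and MT-ND4 it was 0.19 and 0.13, and for MT-ND3, MT-ND4L and MT-ND6 it was -0.53, -0.59 and -1.67. These values therefore do not show how levels changed under afatinib.

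**Figure D4:**
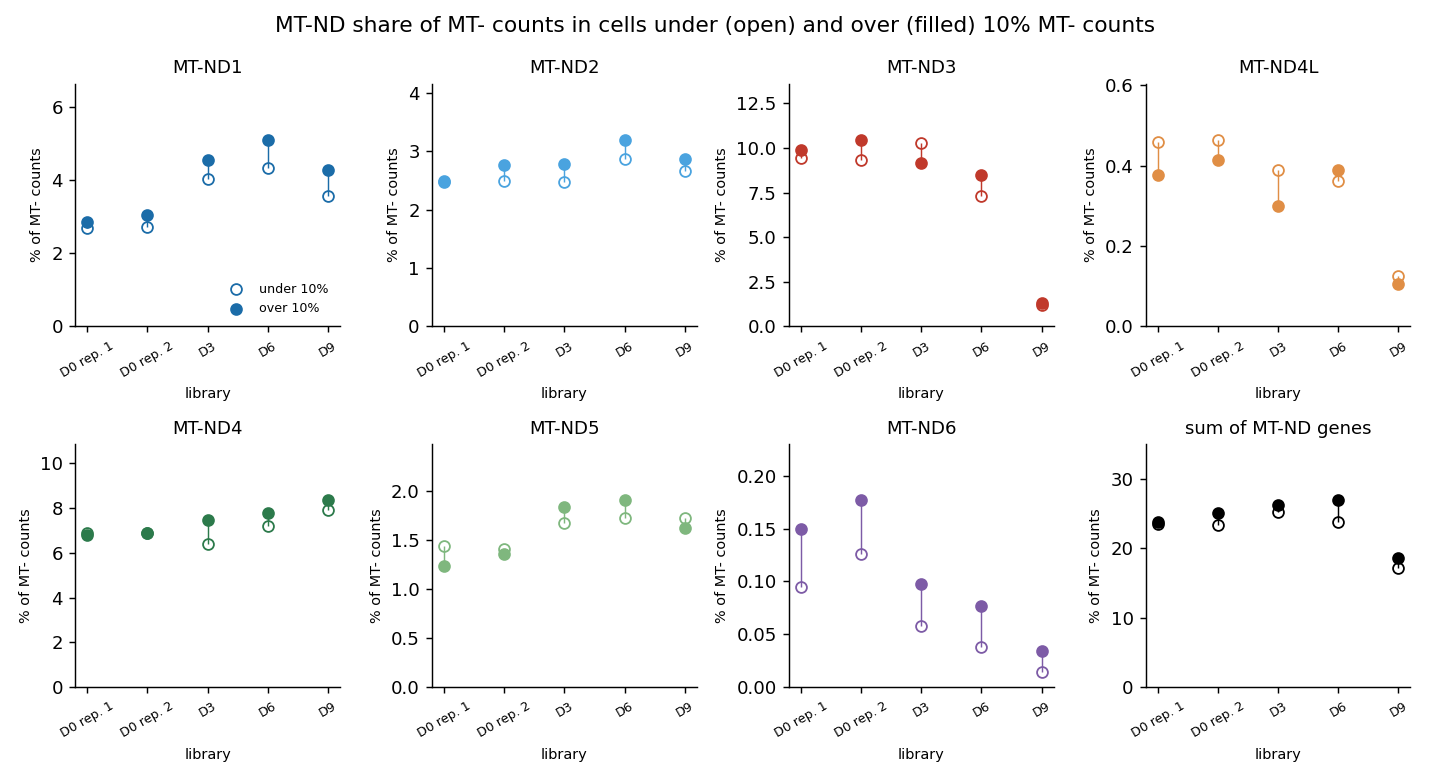
Share of MT- counts, in percent, taken by each MT-ND gene and by their sum in cells under (open points) and over (filled points) 10% MT- counts, 1 pair per library. The summed share is higher over the line in all 5 libraries, from 23.5% against 23.8% in D0 replicate 1 to 23.9% against 26.9% at D6, and MT-ND3 at D9 stays near 1.2% on both sides.

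Cell depth moved with the level more than with the share. When the cells of a library were ranked by UMI count and split into 3 equal bins, the 7 genes had 26798 and 28841 CPM in the D0 replicates, 74092 at D3, 74184 at D6 and 24963 at D9 in the shallowest bin, and in the deepest bin 14534, 15815, 29860, 28629 and 13405 CPM. Their share of MT- counts ran from 17.0% to 18.4% over the bins of D9 cells and from 23.1% to 27.5% over those of the other libraries. MT-ND3 had 1.16% to 1.32% of MT- counts in the 3 bins of D9, and at D3 10.4% in the shallowest and 8.70% in the deepest.

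Across thinned cells within a library the members varied together. The mean Pearson correlation over the 5 libraries was 0.86 between MT-ND1 and MT-ND4, 0.84 between MT-ND1 and MT-ND3 and 0.78 between MT-ND4 and MT-ND5, and from 0.34 to 0.53 in pairs with MT-ND4L or MT-ND6, the sparsest members. The summed MT-ND counts went with the sum of the other 6 mitochondrial protein-coding genes at a mean r of 0.94 (0.93 to 0.95). These cells share a library and a fixed total, so the values are descriptions. Of 5024 nuclear-encoded genes, those with the highest mean r to the MT-ND sum were a gene given only as ENSG00000269028 (0.60), the nuclear-retained RNAs MALAT1 (0.57) and NEAT1 (0.44), POLR2J3 (0.38) and LINC00662 (0.35). Among those with the lowest were the ribosomal protein genes RPL13 (-0.71), RPS12 (-0.70) and RPLP1 (-0.70).

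Across libraries the nuclear-encoded genes most like the MT-ND sum, by the distance between centred log2 CPM profiles over 5 libraries among 6419 genes of at least 20 CPM on average, were NRDE2 (distance 0.274), RNF44 (0.386), LYNX1 (0.449), HIP1R (0.460) and LAMA5 (0.482). NRDE2 had 21.6 and 21.7 CPM at D0, 46.8 at D3, 43.5 at D6 and 19.2 at D9. With 5 points such likeness is a description of these libraries.

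The nuclear side of complex I moved differently. Of its 7 core subunits, which carry the flavin and iron-sulfur clusters, 0 passed the test between afatinib and untreated in edgeR, 0 had an unadjusted p under 0.05 and 0 passed in DESeq2 or limma-voom (median log2 fold change 0.12). Of 30 accessory subunits 0 rose and 11 fell, 36.7% lower beside 10.1% of all genes that fell and 13.1% that rose (median -0.58, against 0.05 over all genes). NDUFB1 had 539 and 531 CPM at D0, then 232, 226 and 75.5 CPM on the treated days, and its log2 fold change was -1.73 ± 0.419 (adjusted p 0.0243 in edgeR). NDUFA3 (-1.64) and NDUFB3 (-1.07) followed. With the length offset 1 of 7 core subunits was higher and 5 of 30 accessory subunits were lower, with no share over all genes beside them. NDUFB1, of 317 nt, was then at -1.11 (edgeR adjusted p 0.0510). NDUFA3, with a canonical transcript of 945 nt, was at -1.33 (adjusted p 0.118 in edgeR).

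Between D9 and D6, 3 accessory subunits fell, NDUFA3 by 2.10, NDUFA1 by 1.67 and NDUFB1 by 1.61 on the log2 scale, and NDUFB5 rose by 1.08 (beside 3.26% of all genes that fell and 0.963% that rose), while 0 of 7 core subunits passed in edgeR (median 0.63). With the length offset 6 accessory subunits were lower and 1 was higher, again with no share over all genes beside them. Of 19 assembly factors, which build the complex, 0 rose and 5 fell under afatinib, 26.3% lower beside 10.1% of all genes (median -0.32). The largest falls were those of NDUFAF3 (-1.43 ± 0.138, edgeR adjusted p 0.00199), NDUFAF8 (-1.09) and DMAC1 (-0.89), and with the length offset 6 of 19 were lower.

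Genes that copy, transcribe and process mitochondrial nucleic acids were read last. Of 9 genes for replication and packaging of mitochondrial DNA 0 passed in edgeR and 1 had an unadjusted p under 0.05 (median -0.03). In both DESeq2 and limma-voom 1 was lower, and with the length offset 1 was lower. No share over all genes stands beside counts from these tools or from the offset here. TWNK, the replicative helicase, fell by 1.03 between D9 and D6, from 9.56 to 4.78 CPM, beside 3.26% of all genes that fell, but with the length offset it was at -0.96, short of the fold required. Of 8 genes for mitochondrial transcription 0 passed in edgeR, DESeq2 or limma-voom and 2 had an unadjusted p under 0.05 (median -0.03). With the length offset 1 of the 8 was higher. Of 21 genes for processing and stability of mitochondrial RNA 0 rose and 2 fell, 9.52% lower beside 10.1% of all genes, a share near the background (median -0.14). With the length offset 1 was higher and 3 were lower. SLIRP, whose product binds mitochondrial messenger RNAs together with LRPPRC, had 472 and 461 CPM at D0, then 190.4, 196 and 63.2 CPM on the treated days, and its log2 fold change was -1.78 ± 0.422 (adjusted p 0.0229 in edgeR). Its transcript has 376 nt, and with the length offset it was at -1.22 (edgeR adjusted p 0.0498). GRSF1, a protein of the mitochondrial RNA granules, was at -0.64 ± 0.143 (edgeR adjusted p 0.0191).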

How the data were processed

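Single cells were profiled with a 3′ Chromium kit. The submitters' processing notes name Cell Ranger 6.1.2 and the build GRCh38. The authors removed cells with under 5000 UMIs, with an outlying mitochondrial share or called as doublets, adjusted counts for the D0 captures with ComBat-seq and dropped weakly expressed genes. Deposited are expected counts per gene and cell, whole-number UMI counts as this adjustment left them, so rounding changed nothing. An adjustment of this kind can draw the D0 libraries together and make p-values too small. The value missing among MT-ND4L and MT-ND6 counts was missing at D3, D6 and D9 too. Low counts and detection in treated cells are therefore read from adjusted values as well. The genes and lists were chosen with earlier results of these data known.

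Counts were summed per library (14517579 to 28148379) and tested with edgeR 4.0.16 in R 4.3.3 (TMM, filterByExpr, 12145 genes, quasi-likelihood test, Benjamini-Hochberg, threshold 0.05), with 3 residual degrees of freedom and a biological coefficient of variation of 0.171. The fit by day has 1 residual degree of freedom and a coefficient of 0.0557, and required a log2 fold change of at least 1. The script was tested on simulated data. Positions, bases and lengths come from hg38 and GENCODE 44 canonical transcripts (12123 of 12145 genes). Named were all members and, per list, up to 3 called rises and 3 falls. Also named were the 5 nuclear genes most like the MT-ND sum over libraries and the 5 most and 5 least correlated with it over cells, of which 2 are not reported here. Alternatives used DESeq2 1.42.0 and limma 3.58.1.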

Additional observations from a re-analysis of the deposited data

Results flagged for a closer look

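In the comparisons of D9 with the other treated days, members passed the threshold of the fit by day, whose spread comes from the D0 pair alone. Between D9 and D3 the log2 fold change was -1.16 for MT-ND1, -3.84 for MT-ND3, -2.29 for MT-ND4L, -1.02 for MT-ND5 and -3.10 for MT-ND6. Between D9 and D6 it was -1.28 for MT-ND1, -1.10 for MT-ND2, -3.65 for MT-ND3, -2.59 for MT-ND4L, -1.04 for MT-ND5 and -2.67 for MT-ND6. Each day is 1 library, and the differences that belong to the day and to its capture cannot be told apart.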

How the results depend on the processing

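Between afatinib and untreated 2819 genes passed, 1363 in thinned cells, 601 with a linear trend over day and 239 to 6817 when 1 library was left out, with the fewest without D0 replicate 2 and the most without D9. The fit without D9, with those 6817 genes, is also the one in which every member passed. TMM gave 1590 genes higher and 1229 lower, scaling to nuclear-encoded genes 1282 and 1497, and linear trend 153 and 448. The calls of MT-ND1 and MT-ND5 were lost in thinned cells too (edgeR adjusted p 0.0621 and 0.0794) and with the trend (0.503 and 0.561), that of MT-ND5 with nuclear scaling and with the size factors of DESeq2 (0.0587 and 0.0538), and DESeq2 also called MT-ND2 and MT-ND4. The share of all genes that DESeq2 called is not given. Of the members without a call, 3 changed sign. MT-ND6 ran from -0.63 to 0.39 when 1 library was left out (0.15 without D0 replicate 2, 0.39 without D9) and was at 0.36 with the length offset. MT-ND3 ran from -0.11 (without D3) to 0.87 (without D9) and was at -1.18 with the trend and -0.29 in limma-voom, and MT-ND4L ran from -0.27 (without D6; -0.00011 without D3) to 0.64 (without D9) and was at -0.70 with the trend and -0.11 in limma-voom. The difference in the summed share of MT- counts, -0.31 points, became 0.052 in thinned cells, 0.151 as a mean over cells, 2.39 for D3 alone and 2.74 for D6 alone, and ran from -1.84 to 2.56 when 1 library was left out. The difference across the 10% line, 1.47 points, became 0.073 at 5% (1.02 without D3 and -0.63 without D6, both left out after the data were seen), 1.72 at 15% and 1.60 at 20%. The causes of these changes were not tested. No paired analysis was possible because the labels number only the D0 libraries, and each treated day has 1 library. MT-ND6, with 429 counts at D9, is the member that depth limits most.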
